A study of Mus musculus with 6 samples.

Results

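The genes described here take up, carry, oxidise, break down and sense vitamin A in mouse back epidermis, measured by RNA-seq after loss of Spry1. They are 9 genes of 54532 in the deposited table, chosen by gene name: Crabp2, Stra6, Dhrs3, Dhrs9, Rdh12, Aldh1a3, Cyp26b1, Rarg and Rxra. The knockout mice were Spry1flox/flox with K14-Cre-ERT2, a tamoxifen-inducible Cre recombinase under the promoter of keratin 14, a gene of basal keratinocytes. Controls were Spry1flox/flox without Cre. Both were gavaged with tamoxifen, 0.1 mg for each g of weight, on 4 occasions per week for 4 weeks. There were 3 samples of each genotype. No group carried Cre without floxed alleles, so loss of Spry1 and an effect of Cre cannot be told apart. The labels give no age or sex and do not say that the samples were separate animals. The p-values therefore cover the spread among these samples, which may be technical, in part among knockouts and wholly among controls.

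Retinol is taken up into the cell, esterified for storage, or oxidised reversibly to retinal. Retinaldehyde dehydrogenases then oxidise retinal irreversibly to retinoic acid, which binds nuclear receptors that pair as a retinoic acid receptor with a retinoid X receptor. Enzymes of the Cyp26 family break retinoic acid down. In epidermis retinoids control proliferation and terminal differentiation of keratinocytes.

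Spry1, which encodes a brake on growth factor receptor signalling, read 1.06, 1.49 and 1.28 FPKM in the knockouts and 25.8, 28.2 and 34.4 FPKM in the controls. FPKM is a fragment count divided by gene length and by sequencing depth. The recovered reads numbered 18383323 to 21024716 per sample. Eif2s3y, which is Y-linked, stood at 19.3 FPKM in knockout replicate 2, with 0.203 and 0.0438 FPKM in the remaining knockouts and 0 in every control. Knockout replicate 2 thus held male tissue and was not the same material as the remaining knockouts. Control replicate 3 had the lowest summed sebocyte markers of all samples. Results are therefore also given without that pair of samples where this changes a call. Genes averaging 1 FPKM or more were tested with limma on log2(FPKM + 1), and all fold changes are on that scale, which understates the change of low genes. Of 12629 genes tested, 54.0% passed a Benjamini-Hochberg adjusted p of 0.05, with 3736 higher (29.6%) and 3079 lower (24.4%) in the knockout. The groups did not overlap in 64.2% of tested genes. Scaling each sample to the same FPKM sum (TPM scaling) moved the median fold change over the table by -0.23, with 2058 genes called higher and 4455 lower. Scaling to recovered reads moved it by -0.11, with 2900 called higher and 3742 lower.

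All 9 retinoid genes passed the filter, and 5 passed the threshold, close to the share over all genes. Aldh1a3, Crabp2 and Dhrs9 were called higher, and Dhrs3 and Rarg lower. Dhrs9 passed the filter through the knockouts alone, and with no filter neither Dhrs9 nor Rarg passed. Rxra, Cyp26b1, Rdh12 and Stra6 did not pass. The groups did not overlap for 6 of the 9, close to the 64.2% over all genes tested. The median log2 fold change of the 9 genes was 0.07, beside 0.03 over all genes tested.

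**Figure D1:**
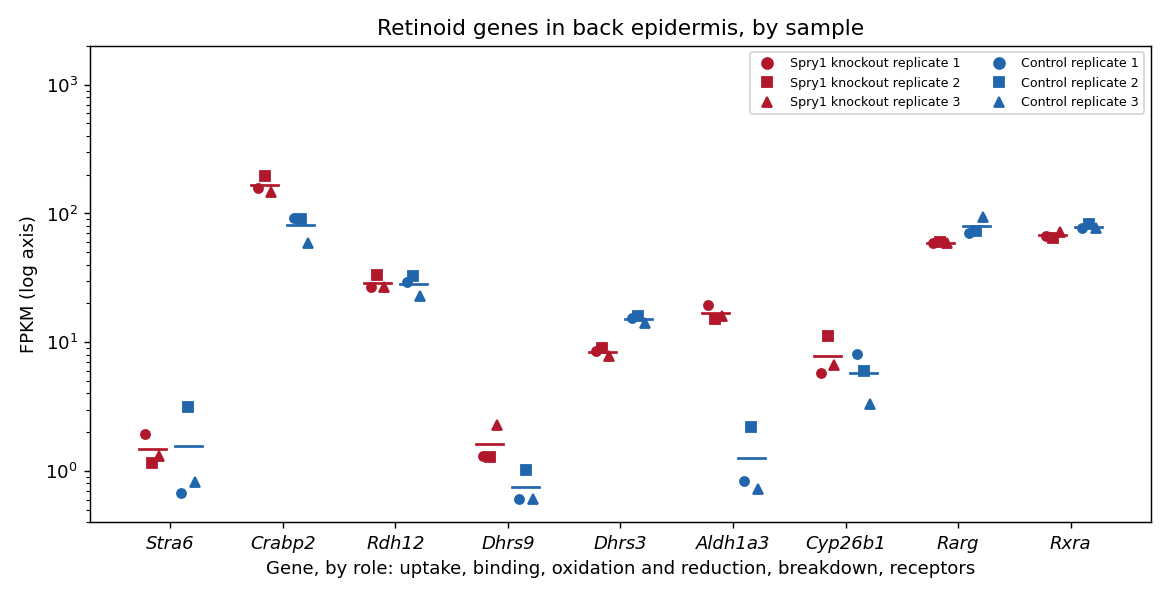
FPKM of the 9 retinoid genes on a log axis, with knockout samples in red left of control samples in blue, 1 symbol per replicate number and a bar at the arithmetic mean. Aldh1a3 lies at 15.2 to 19.5 FPKM in the knockouts and at 0.722 to 2.21 FPKM in the controls, and Rdh12 overlaps between genotypes.

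In the knockouts the order of levels per gene length was Crabp2, Rxra, Rarg, Rdh12, Aldh1a3, Dhrs3, Cyp26b1, Dhrs9 and Stra6. The sample ranges of Dhrs3 and Cyp26b1 overlapped, as did those of Dhrs9 and Stra6. In the controls it was Crabp2, Rarg, Rxra, Rdh12, Dhrs3, Cyp26b1, Stra6, Aldh1a3 and Dhrs9. There Crabp2, Rarg and Rxra overlapped with their neighbours, and so did the lowest genes Stra6, Aldh1a3 and Dhrs9. Aldh1a3 therefore ranked 5 among the 9 in the knockouts and 8 in the controls. In bulk tissue, more cells of a type and more RNA per cell cannot be told apart.

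Crabp2 encodes the binding protein that hands retinoic acid to its nuclear receptors. Its GRCm38 position is chromosome 3, 87948666 to 87953376. It read 158, 197 and 148 FPKM in the knockouts, against 92.3, 91.2 and 59.1 FPKM in the controls. Every knockout sample lay above every control sample, and control replicate 3 was the lowest. The mean was 167 ± 26.1 FPKM in knockouts and 80.8 ± 18.9 FPKM in controls (SD, n = 3 each), or 2.07-fold higher. On the log2 scale it rose by 1.06 ± 0.20 (SE; limma adjusted p of 0.00434). It was 0.85 without control replicate 3, and 0.73 without that sample and knockout replicate 2 together, with limma adjusted p values of 0.00322 and 0.00324.

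Stra6, the cell-surface receptor that imports retinol from its plasma carrier, was low. It read 1.96, 1.16 and 1.31 FPKM in the knockouts, against 0.678, 3.15 and 0.827 FPKM in the controls. The lowest and the highest value both came from controls, so the groups overlapped. These values rest on 117 to 229 recovered reads in knockouts and 72 to 336 in controls. The log2 fold change was 0.07, with a 95% interval from -0.76 to 0.90 that also covers sizable changes in either direction (limma adjusted p of 0.881). Reads of the opposite-strand gene Ccdc33, which overlaps Stra6, averaged 0.0103 FPKM in knockouts and 0.0132 FPKM in controls.

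The largest change among the 9 genes was that of Aldh1a3, a retinaldehyde dehydrogenase that makes retinoic acid. Its GRCm38 position is chromosome 7, 66390890 to 66427517. It read 19.5, 15.2 and 16.0 FPKM in the knockouts, against 0.844, 2.21 and 0.722 FPKM in the controls. In recovered reads these were 1809, 1220 and 1212 in knockouts, against 71, 187 and 65 in controls. The knockout mean was 13.4-fold higher, with means of 16.9 ± 2.28 FPKM in knockouts and 1.26 ± 0.829 FPKM in controls (SD, n = 3 each). On the log2 scale Aldh1a3 rose by 3.04 ± 0.24 (SE; limma adjusted p of 0.000133). Over all 15 alternative settings it stayed past the threshold, between 2.84 and 3.80.

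The other retinaldehyde dehydrogenases of the list, Aldh1a1 and Aldh1a2, were low in all samples. Aldh1a1 read 0.131, 0.117 and 0.148 FPKM in the knockouts, against 1.29, 1.04 and 0.946 FPKM in the controls. It lay below the filter, and in the fit with no filter its limma adjusted p was 0.00155. Aldh1a7, a close copy of Aldh1a1 in rodents that is not known as an efficient retinal oxidase, read 1.61, 3.21 and 1.18 FPKM in the knockouts, against 10.2, 8.66 and 6.63 FPKM in the controls. Aldh1a7 fell by 1.70 on the log2 scale (limma adjusted p of 0.00176). The split of reads between these copies is uncertain. Aldh1a2 averaged 0.145 FPKM in knockouts and 0.165 FPKM in controls. Of these retinaldehyde dehydrogenases, Aldh1a3 was the highest in every knockout, while in the controls the ranges of Aldh1a3 and Aldh1a1 overlapped.

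Dhrs3 encodes a short-chain reductase that turns retinal back into retinol. Its GRCm38 position is chromosome 4, 144892827 to 144928209. It read 8.53, 8.98 and 7.81 FPKM in the knockouts, against 15.5, 15.8 and 14.1 FPKM in the controls. All knockout samples were below all controls, with little spread within either group. The control mean was 1.79 times that of the knockouts. Dhrs3 fell by 0.77 ± 0.09 (SE) on the log2 scale, with a limma adjusted p of 0.000475. It stayed past the threshold over all 15 alternatives, between -1.03 and -0.73.

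Dhrs9 is a related enzyme that oxidises retinol and hydroxysteroids, and it was low in every sample. It read 1.30, 1.29 and 2.29 FPKM in the knockouts, against 0.602, 1.02 and 0.611 FPKM in the controls. The groups did not overlap, and the values rest on 96 to 161 recovered reads in knockouts and 47 to 80 in controls. The control mean of 0.745 FPKM lay under the filter, so Dhrs9 was tested through its knockout values alone and had to differ to be tested. The log2 difference was 0.58 ± 0.19 (SE; limma adjusted p of 0.0385), and 1.02 with a pseudocount of 0.1. The call was lost without control replicate 1 (limma adjusted p of 0.106), control replicate 3 (0.0792), knockout replicate 1 (0.0556) or control replicate 3 and knockout replicate 2 together (0.0778). It was also lost with no filter (0.081), under TPM scaling (0.0748) and scaled to recovered reads (0.0503). Without knockout replicate 3 the gene lay below the filter.

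Rdh12 encodes a retinal reductase best known from photoreceptors. Its knockout values were 26.9, 33.2 and 26.9 FPKM, against 29.3, 32.8 and 23.0 FPKM in the controls. The ranges overlapped almost fully. The log2 fold change was 0.04, with a 95% interval from -0.32 to 0.39 (limma adjusted p of 0.85). The ratio of means was 1.02. Unlike the low genes of this family, Rdh12 had 1311 to 1711 recovered reads in knockouts and 1331 to 1779 in controls.

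Of 15 other genes of retinol and retinal oxidation, 9 were tested, and 3 fell while none rose. That is 33.3% called, beside 54.0% over all genes tested, with a median log2 fold change of -0.06 beside 0.03. The filter bears on this count too, because Aldh1a1, which was lower, did not pass it. With no filter, 4 of the 15 were called lower and none higher, beside 13.1% lower and 14.1% higher over 28340 genes. That fit left out genes at 0 in all samples, Adh4 among them. Adh1, an alcohol dehydrogenase that oxidises retinol, read 1.20, 2.19 and 2.04 FPKM in the knockouts, against 17.1, 11.9 and 10.3 FPKM in the controls. It fell by 2.32 ± 0.21 (SE), with a limma adjusted p of 0.000221. Adh7, a retinol-active alcohol dehydrogenase of epithelia, averaged 14.0 ± 2.89 FPKM in knockouts and 30.4 ± 1.54 FPKM in controls (SD, n = 3 each), and fell by 1.08 (limma adjusted p of 0.000812). The third gene called lower with the filter was Aldh1a7. Rdh10, the main retinol dehydrogenase of the embryo, averaged 3.50 FPKM in knockouts and 3.26 FPKM in controls and did not pass (95% interval -0.17 to 0.33). Rdh1, Rdh11, Rdh13, Rdh14 and Dhrs4 did not pass either, and their knockout means were 0.918 to 1.28 times the control means. Besides Aldh1a1 and Aldh1a2, Rdh5, Rdh9, Rdh16 and Adh4 were below the filter, and Adh4 was listed at 0 in all samples.

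**Figure D2:**
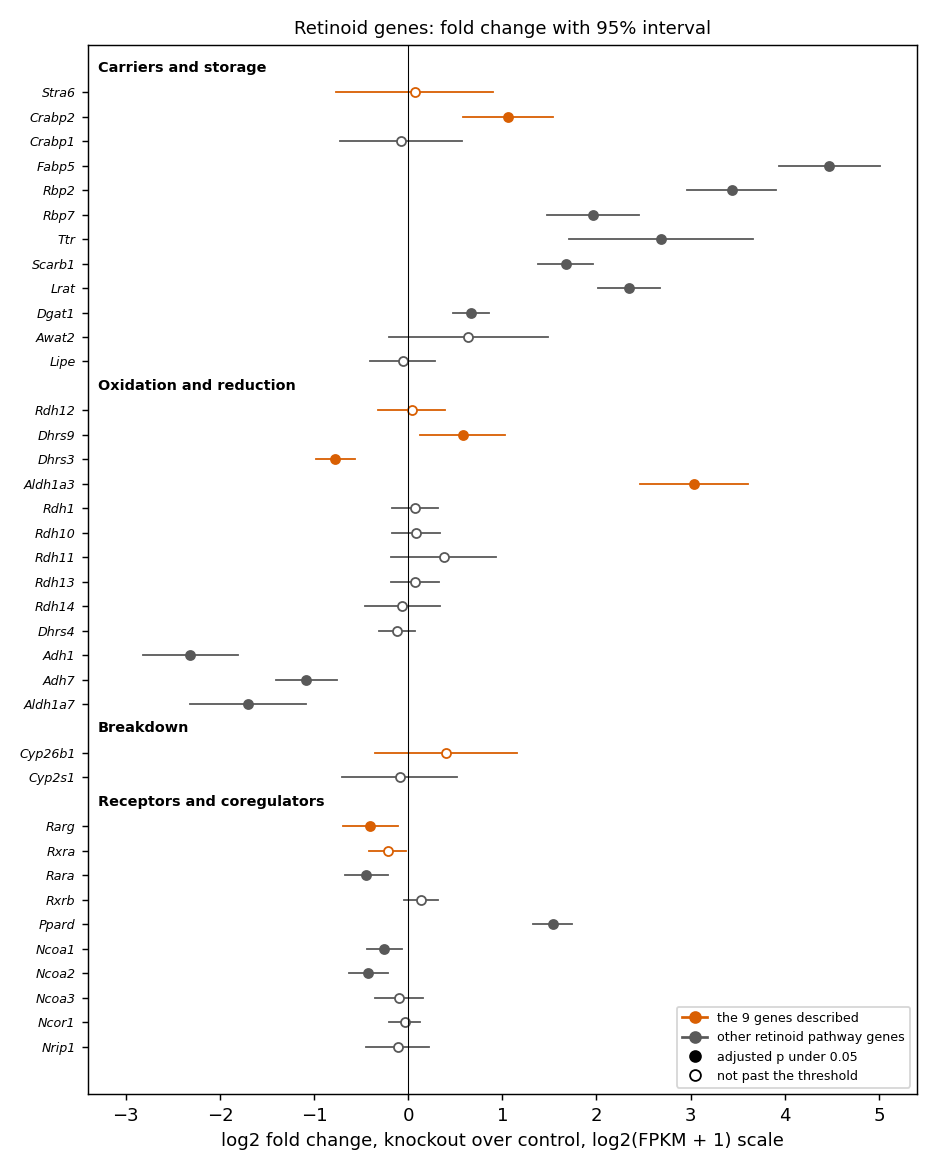
Log2 fold change, knockout over control, with its 95% interval for the named retinoid genes tested, grouped by role, with the 9 genes in orange, the others in grey, and filled symbols for an adjusted p under 0.05. Carriers and storage genes lie mostly right of 0, up to 4.47 for Fabp5, and Adh1 lies farthest left at -2.32.

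Several carriers and storage genes were many times higher in the knockouts. Of 14 on the list 11 passed the filter. Of these, 8 (72.7%) were called higher and none lower, beside 29.6% higher and 24.4% lower over all genes tested. The filter bears on this count, because Lrat, Rbp7, Scarb1 and Ttr passed it through the knockouts alone and Bco1, which was lower, did not pass it. With no filter, 9 of the 14 were called higher and 1 lower, beside 27.2% of 28340 genes called, 14.1% higher and 13.1% lower. Fabp5, which carries retinoic acid and fatty acids, read 1505, 1797 and 1882 FPKM in the knockouts, against 75.6, 105 and 56.4 FPKM in the controls. Its mean was 21.9-fold higher, with a log2 fold change of 4.47 ± 0.23 (SE) and a limma adjusted p of 2.64e-05. Rbp2, a cellular retinol-binding protein known from the intestine, read 211, 217 and 273 FPKM in the knockouts, against 23.7, 24.3 and 14.9 FPKM in the controls, an 11.1-fold difference of means (limma adjusted p of 4.46e-05). For both genes every knockout sample lay far above every control sample.

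Lrat, the main enzyme that esterifies retinol for storage, read 3.74, 5.14 and 3.94 FPKM in the knockouts. Its control values were 0.0205, 0.0818 and 0 FPKM, or 2, 8 and 0 recovered reads. The log2 difference was 2.34, with a limma adjusted p of 0.000348 in the fit with no filter, and 5.06 with a pseudocount of 0.1. Dgat1, which also esterifies retinol, averaged 10.9 ± 0.593 FPKM in knockouts and 6.48 ± 0.315 FPKM in controls (SD, n = 3 each) and rose by 0.67. Scarb1, a scavenger receptor that takes up carotenoids, Ttr, a plasma partner of retinol-binding protein, and Rbp7, a retinol-binding protein, had log2 fold changes of 1.67, 2.69 and 1.97. With no filter their limma adjusted p values were 0.000654, 0.00683 and 0.00187. With a pseudocount of 0.1 the values of Scarb1 and Rbp7 were 2.82 and 3.23. All 3 averaged under 1 FPKM in the controls.

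Crabp1, the sister of Crabp2, averaged 1.18 ± 0.151 FPKM in knockouts and 1.40 ± 0.873 FPKM in controls (SD, n = 3 each) and did not pass. Awat2, an acyltransferase of sebaceous lipid synthesis, and Lipe, a lipase, did not pass either. Bco1, which cleaves beta-carotene into retinal, lay below the filter. It read 0.0391, 0.0453 and 0.0239 FPKM in the knockouts, against 1.32, 1.85 and 0.484 FPKM in the controls. In the fit with no filter its limma adjusted p was 0.0216, and it was the only member of the list called lower there. Rbp4, the plasma carrier of retinol, and Stra6l, a relative of Stra6, lay below the filter too. Rbp4 read 0.345, 0.444 and 0.234 FPKM in the knockouts, against 0.0423, 0.0422 and 0.158 FPKM in the controls (limma adjusted p of 0.0297 with no filter).

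**Figure D3:**
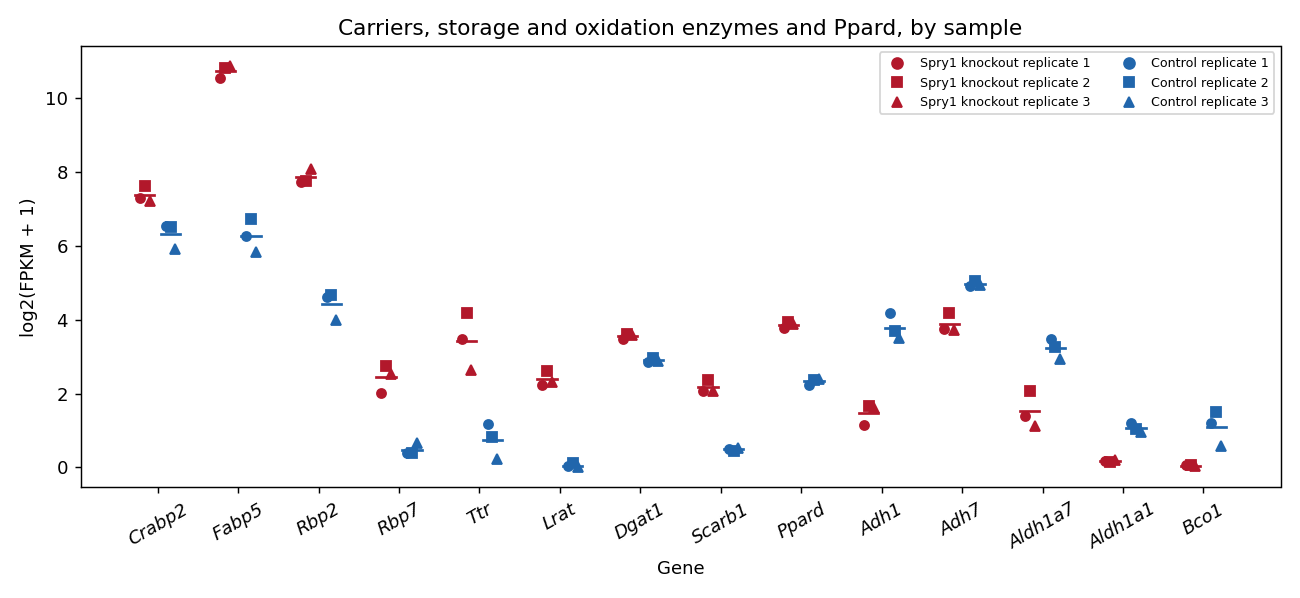
log2(FPKM + 1) of carriers, storage and oxidation enzymes and Ppard by sample, with knockouts in red left of controls in blue, 1 symbol per replicate number and a bar at the mean. Fabp5 lies near 11 in the knockouts and near 6 in the controls on this scale, while Adh1, Adh7 and Aldh1a7 lie lower in the knockouts.

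Cyp26b1 encodes a retinoic acid hydroxylase that clears the ligand. It read 5.77, 11.1 and 6.69 FPKM in the knockouts, against 8.06, 5.99 and 3.31 FPKM in the controls. The highest value was that of knockout replicate 2 and the lowest that of control replicate 3, and the other 4 samples lay between. The log2 fold change was 0.40, with a 95% interval from -0.35 to 1.16 (limma adjusted p of 0.314). Without those 2 samples it was -0.14. Cyp26b1 was the only Cyp26 gene above the filter. Cyp26a1 read 0.112, 0 and 0 FPKM in the knockouts, against 0.0619, 0 and 0 FPKM in the controls. Cyp26c1 was listed at 0 in the knockouts and in 2 of the 3 controls. Cyp2s1, an epithelial P450 that metabolises retinoic acid, averaged 3.55 ± 1.43 FPKM in knockouts and 3.81 ± 1.25 FPKM in controls (SD, n = 3 each) and did not pass.

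The promoters of Cyp26a1 and of the receptor gene Rarb hold the textbook retinoic acid response element, a direct repeat of receptor half-sites spaced by 5 bases. They are shown because both genes are standard readouts of retinoic acid receptor activity, beside Cyp26b1, whose window holds none. Each runs from 120 bases before to 50 after the start, from RefSeq (GRCm38.p6), 5′ to 3′ on the gene's strand. Half-sites are in capitals, and in Cyp26a1 they read on the opposite strand. The windows are chr19:37697688-37697857 (plus strand), chr14:16575427-16575596 (minus strand) and chr6:84593761-84593930 (minus strand).
Cyp26a1: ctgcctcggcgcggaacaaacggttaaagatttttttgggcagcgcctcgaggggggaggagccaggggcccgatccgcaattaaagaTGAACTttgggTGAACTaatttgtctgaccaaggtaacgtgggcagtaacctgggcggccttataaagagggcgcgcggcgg
Rarb: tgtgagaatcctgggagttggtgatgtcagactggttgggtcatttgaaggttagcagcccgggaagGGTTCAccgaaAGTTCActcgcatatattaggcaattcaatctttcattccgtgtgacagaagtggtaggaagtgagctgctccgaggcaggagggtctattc
Cyp26b1: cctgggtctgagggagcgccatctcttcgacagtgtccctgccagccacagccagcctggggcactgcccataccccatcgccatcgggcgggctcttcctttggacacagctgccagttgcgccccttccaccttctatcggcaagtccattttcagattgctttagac

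The search took the half-site AGGTCA and the variant forms AGTTCA or else GGGTCA or else GGTTCA, repeated in the same direction with 1, 2 or 5 bases between, on both strands. Each spacing was searched on its own, so repeats of different spacing may overlap. It covered 250 bases before to 50 after each start. Spacing of 5 bases occurred in 0.0974% of 32851 RefSeq promoters, spacing of 2 in 0.268% and spacing of 1 in 0.222%. Of the 9 genes, 7 matched the table with 14 promoters, and none held any of these repeats. Crabp2 and Aldh1a3 had no entry. Among the other retinoid genes the repeat spaced by 5 was in Cyp26a1 and Rarb, and the repeat spaced by 1 in Bco1. A match is a description of the sequence and not of binding.

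Both genes with that repeat were close to 0 in both genotypes. Rarb read 0.0662, 0.0109 and 0.0924 FPKM in the knockouts, against 0, 0.0312 and 0.00974 FPKM in the controls. In recovered reads Rarb had 7, 1 and 8 in the knockouts, against 0, 3 and 1 in the controls. Cyp26a1 had 4, 0 and 0 in the knockouts, against 2, 0 and 0 in the controls. The opposite-strand gene Top2b overlaps Rarb and averaged 18.3 FPKM in knockouts and 19.6 FPKM in controls. Neither Rarb nor Cyp26a1 could be tested above the filter, and at these read numbers a difference was not detectable. With no filter the limma adjusted p values were 0.279 for Rarb and 0.774 for Cyp26a1.

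Rarg and Rxra encode the receptors that pair in epidermis, and both were among the 3 most abundant of the 9 genes in either genotype. Rarg, on chromosome 15 from 102234938 to 102257517 in GRCm38, read 59.0, 59.7 and 58.9 FPKM in the knockouts, against 70.2, 72.8 and 94.6 FPKM in the controls. The knockouts lay within 1 FPKM of each other, below every control. Rarg fell by 0.40 ± 0.12 (SE), with a limma adjusted p of 0.0302. The call was lost without knockout replicate 1 (limma adjusted p of 0.0785), 2 (0.0749) or 3 (0.075) and with no filter (0.0547), and held under every scaling tried.

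Rxra, on chromosome 2 from 27676440 to 27762957, read 66.4, 64.6 and 72.1 FPKM in the knockouts, against 76.6, 83.1 and 76.9 FPKM in the controls. The groups did not overlap, but the log2 fold change of -0.22 ± 0.08 (SE) did not pass, with a limma adjusted p of 0.0626. It passed with TPM scaling (-0.49, limma adjusted p of 0.00395), median-ratio scaling (-0.27, 0.0241), scaling to recovered reads (-0.35, 0.00844), limma-voom on recovered reads (-0.36, 0.00665) and array weights (-0.24, 0.0229). Its 95% interval ran from -0.42 to -0.02. It had 6123 to 7293 recovered reads in knockouts and 7628 to 8302 in controls.

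Of 11 other receptor and coregulator genes, 9 were tested, 1 rose and 3 fell, or 44.4% called beside 54.0% over all genes. The median log2 fold change was -0.11. The one that rose was Ppard, a fatty acid receptor to which Fabp5 delivers ligands. Ppard read 12.7, 14.5 and 13.8 FPKM in the knockouts, against 3.72, 4.17 and 4.27 FPKM in the controls, or 3.36-fold higher (1.53 ± 0.09 on the log2 scale, SE, with a limma adjusted p of 4.17e-05). Rara, the other retinoic acid receptor present, averaged 6.77 ± 0.462 FPKM in knockouts and 9.57 ± 0.913 FPKM in controls (SD, n = 3 each) and fell by 0.44 (limma adjusted p of 0.00767). The coactivator genes Ncoa1 and Ncoa2 fell by 0.25 and 0.42. Ncoa1 did not pass without knockout replicate 1 (limma adjusted p of 0.102), 2 (0.06) or 3 (0.0624) or control replicate 1 (0.0951) or 2 (0.0751). Rxrb, Ncoa3 and the corepressor genes Ncor1 and Nrip1 did not pass. Rxrg was listed at 0 in all but knockout replicate 1, at 0.0433 FPKM.

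Ratios of genes within a sample do not depend on scaling between samples. With 3 against 3 samples an exact permutation test cannot give a p below 0.10. The ratio of Crabp2 to Fabp5 was 0.105, 0.110 and 0.0784 in the knockouts, against 1.22, 0.871 and 1.05 in the controls. The carriers were thus near parity in controls, and Fabp5 was well above Crabp2 in every knockout. This was a log2 difference of -3.42 (two-sided exact p of 0.1, 0.133 adjusted over the 4 ratios). The ratio of Aldh1a3 to Cyp26b1 was 3.38, 1.37 and 2.39 in the knockouts, against 0.105, 0.370 and 0.218 in the controls. Aldh1a3 exceeded Cyp26b1 in every knockout and in no control, a log2 difference of 3.45 with the same exact p.

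The ratio of Dhrs9 to Dhrs3 was 0.153, 0.144 and 0.293 in the knockouts, against 0.0388, 0.0645 and 0.0435 in the controls. Dhrs3 was the higher gene in all samples, and the groups did not overlap (log2 difference 1.96, two-sided exact p of 0.1). For Rarg to Rara the ratio was 8.38, 9.57 and 8.40 in the knockouts, against 8.23, 7.33 and 9.23 in the controls. These overlapped, with a log2 difference of 0.09 (two-sided exact p of 0.4), less than the spread of the control samples (SD 0.17).

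**Figure D4:**
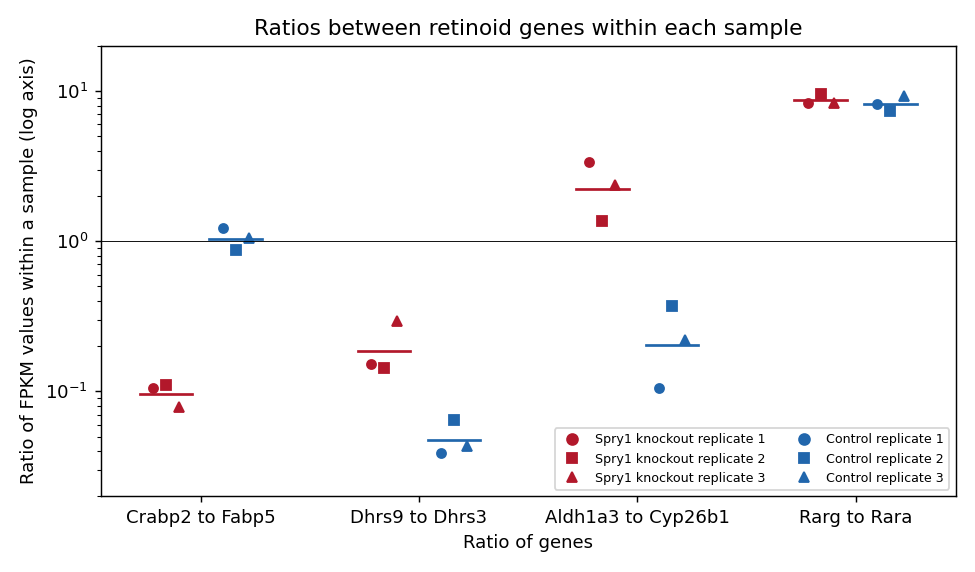
Ratio of 2 FPKM values within each sample on a log axis, with knockouts in red left of controls in blue, 1 symbol per replicate number, a bar at the geometric mean and a line at 1. The ratio of Crabp2 to Fabp5 is 0.0784 to 0.110 in the knockouts and 0.871 to 1.22 in the controls, and the ratio of Rarg to Rara overlaps between them.

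Genes known to respond to retinoids moved both ways. Of 8 genes that retinoids raise in skin or cultured keratinocytes, 5 were tested, 1 rose and 1 fell, or 40% called beside 54.0% over all genes. With only 5 genes tested, no difference is read from these shares. The median log2 fold change was -0.05. Rarres1, a retinoic acid receptor responder, fell by 1.25 (limma adjusted p of 0.00411) and averaged 35.9 ± 7.45 FPKM in knockouts and 87.6 ± 22.7 FPKM in controls (SD, n = 3 each). Areg, the EGF receptor ligand amphiregulin, read 24.6, 27.8 and 24.1 FPKM in the knockouts, against 7.95, 13.1 and 20.9 FPKM in the controls. Its log2 fold change was 0.91 (limma adjusted p of 0.036). Areg did not pass without control replicate 1 (log2 fold change 0.59, limma adjusted p of 0.0525), control replicate 2 (0.0782), or knockout replicate 1 (0.0815), 2 (0.0975) or 3 (0.0797). It did not pass with no filter (0.0803), TPM scaling (0.134) or scaling to recovered reads (0.0646) either.

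Hbegf, another EGF receptor ligand, read 54.8, 41.0 and 37.4 FPKM in the knockouts, against 2.77, 8.37 and 46.0 FPKM in the controls. Control replicate 3 lay among the knockouts, and the gene did not pass (limma adjusted p of 0.0882). Without that control the list had 2 members called higher. Tgm2 and Krt19 did not pass, and Rarres2, Krt4 and Krt13 were below the filter.

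Of 5 genes that retinoids lower in keratinocyte culture, 3 rose and 1 fell, beside 29.6% higher and 24.4% lower over all genes. The median log2 fold change was 1.73, beside 0.03. With only 5 genes, no difference is read from these shares or this median. Krt1, Krt10, Lor and Flg are also among the suprabasal and granular markers given below. Flg, the precursor of filaggrin, read 28.0, 30.4 and 28.8 FPKM in the knockouts, against 2.53, 2.30 and 0.493 FPKM in the controls (3.53 ± 0.31 on the log2 scale, SE, with a limma adjusted p of 0.000193). Tgm1, a cross-linking enzyme of the cornified envelope, averaged 50.8 ± 5.04 FPKM in knockouts and 14.9 ± 3.91 FPKM in controls (SD, n = 3 each). Krt1, a suprabasal keratin, averaged 3009 ± 538 FPKM in knockouts and 782 ± 121 FPKM in controls (SD, n = 3 each). Its partner Krt10 averaged 2751 ± 732 FPKM in knockouts and 5101 ± 593 FPKM in controls (SD, n = 3 each), and fell by 0.92 (limma adjusted p of 0.0173, and 0.201 with no filter). The opposite-strand gene Gm11940, which overlaps Krt10, averaged 1.74 FPKM in knockouts and 13.3 FPKM in controls. Lor did not pass. Without control replicate 3 the list had 2 members called lower.

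Profiles closest to that of Aldh1a3, by Euclidean distance of centred log2(FPKM + 1) over the 6 samples, were those of Serpinb1a (0.47), Akr1b8 (0.60) and Hk2 (0.62). Serpinb1a averaged 51.8 ± 11.9 FPKM in knockouts and 5.56 ± 1.62 FPKM in controls (SD, n = 3 each). The closest to Dhrs3 were Mga (0.10), Rictor (0.11) and Zc2hc1a (0.11). Rictor, a subunit of the mTOR complex, averaged 2.16 ± 0.318 FPKM in knockouts and 4.29 ± 0.256 FPKM in controls (SD, n = 3 each). With 6 samples in 2 groups, such likeness mostly restates the difference between genotypes.

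Markers of the labelled tissue were abundant. Summed over 7 keratinocyte markers, of which Krt14, Krt5 and Krt1 had a higher knockout mean and the other 4 a lower one, levels were 22013 to 27634 FPKM in knockouts and 11899 to 14396 FPKM in controls. The 9 suprabasal and granular markers, 5 with a higher knockout mean, summed to 5716 to 8023 FPKM in knockouts and 7192 to 7587 FPKM in controls. The 6 melanocyte markers, 5 with a higher knockout mean, summed to 209 to 213 FPKM in knockouts and 10.5 to 13.9 FPKM in controls. The 8 sebocyte markers, 6 with a higher knockout mean, summed to 100.1 to 163 FPKM in knockouts and 40.6 to 91.8 FPKM in controls. Of the 8 sebocyte markers 2 were called (25%), beside 54.0% over all genes tested. Control replicate 3 was the sample at 40.6 FPKM. It was the lowest control for Crabp2, Dhrs3, Rdh12, Aldh1a3 and Cyp26b1 and the highest for Rarg. The 10 hair follicle markers, 6 with a higher knockout mean, summed to 1157 to 1372 FPKM in knockouts and 3317 to 4057 FPKM in controls. Most of this sum was Krt15, at a mean of 779 FPKM in knockouts and 3323 FPKM in controls.

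The 6 T cell markers, 2 with a higher knockout mean, summed to 25.7 to 52.5 FPKM in knockouts and 62.6 to 85.5 FPKM in controls. The 8 Langerhans and myeloid markers, 4 with a higher knockout mean, summed to 247 to 399.6 FPKM in knockouts and 639 to 1038 FPKM in controls. Most of this sum was Cd74, at a mean of 238 FPKM in knockouts and 729 FPKM in controls. The 4 with a higher knockout mean were Lyz2, C1qb, Itgax and Cd14. Of 8 fibroblast markers only Postn had a higher knockout mean, and they summed to 161 to 313 FPKM in knockouts and 32.8 to 44.3 FPKM in controls. Most of this sum was Postn, at a mean of 239 FPKM in knockouts and 27.4 FPKM in controls. The 5 skeletal muscle markers summed to 0.990 to 2.04 FPKM in knockouts and 11.5 to 48.0 FPKM in controls. Sums for 5 adipocyte markers were 0.509 to 1.28 FPKM in knockouts and 1.44 to 5.09 FPKM in controls, and for 4 endothelial markers 0.596 to 1.26 FPKM in knockouts and 0.717 to 3.98 FPKM in controls. No marker was at 0 in all samples, while 1 hair follicle and 1 adipocyte marker were at 0 in all knockouts. The part of these cells in the retinoid results was not tested.

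**Figure D5:**
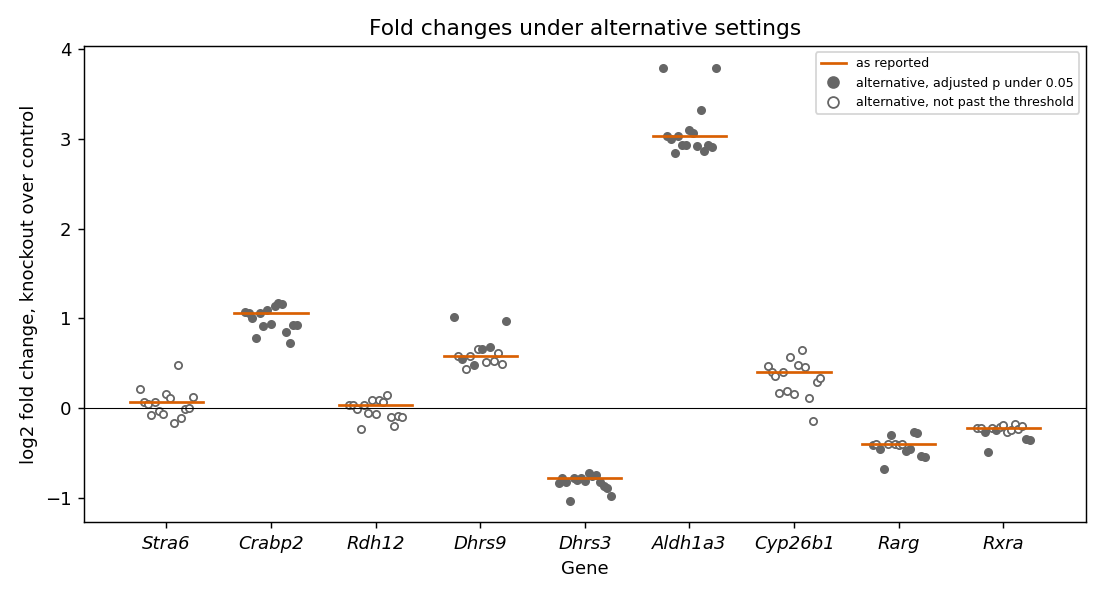
Log2 fold change, knockout over control, of the 9 genes as reported (orange line) and under each alternative setting (points, filled where the limma adjusted p is under 0.05). Aldh1a3, Crabp2 and Dhrs3 are filled throughout, and points of Stra6, Rdh12 and Cyp26b1 fall on both sides of 0.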

How the data were processed

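RNA-seq of back epidermis from 3 knockout and 3 control samples was used. Titles gave the groups and replicate numbers. FPKM values for each sample were deposited by the authors in 1 table. Per the submitters' processing notes, HISAT2 2.0.5 and featureCounts 1.5.0-p3 were used with GRCm38. How FPKM was calculated, the annotation release and whether strand was used are not given in the sources. Reads of genes that overlap on opposite strands therefore cannot be told apart.

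Positions and exon lengths of 54495 genes were looked up in GENCODE M21 by ID. FPKM times exon length was a whole number of steps, 1 step size per sample, for 98.2% to 98.4% of values under 200 reads (tolerance 0.1 reads), which gave recovered reads. The scaling totals read from the steps were 88.1% to 95.6% of the recovered reads in knockouts and 98.8% to 102.9% in controls.

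log2(FPKM + 1) of all genes averaging 1 FPKM or more was fitted on genotype in limma 3.58.1 under R 4.3.3, with a variance trend and a two-sided test, with Benjamini-Hochberg adjustment and a threshold of 0.05. The fit was also run on simulated reads in which few genes changed, as many up as down. In these data 54.0% of tested genes were called, so that run is no check on the calls here. Ratios used an exact permutation test (scipy 1.17.1). The 9 genes and all lists were chosen with earlier results of these data known. Named genes were the 9, Spry1, up to 5 called members of each list with the lowest adjusted p, pathway members not called or under the filter, and the 3 closest profiles to the largest rise and fall. Dgat1, Ttr, Eif2s3y, Ccdc33, Top2b and Gm11940 are named beyond that rule, chosen after their values were seen. Some list members count in the totals but are not reported here by name. The settings varied were the pseudocount (0.1), the filter (none), the scaling (median-ratio and TPM), array weights, a replicate block, and the samples used, leaving out each in turn or both Spry1_KO replicate 2 and Control replicate 3. Scaling to recovered reads and limma-voom on recovered reads were added after seeing the data. Figures used matplotlib 3.10.9 under Python 3.11.15.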

Additional observations from a re-analysis of the deposited data

How the results depend on the processing

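Aldh1a3, Crabp2 and Dhrs3 kept direction and call under all 15 alternatives. Of the 9 genes, 3 were higher and 2 lower. Only 1 was lower with no filter and with the replicate block, and leaving out each sample in turn gave 1 to 2 lower and 2 to 3 higher. With median-ratio scaling, TPM scaling, array weights, scaling to recovered reads and limma-voom on recovered reads, 3 were lower. With no filter, TPM scaling and scaling to recovered reads, 2 were higher. The direction of uncalled genes depended on the setting. Stra6 was -0.078 with TPM scaling, -0.032 with array weights, -0.0017 scaled to recovered reads and -0.013 with both Spry1_KO replicate 2 and Control replicate 3 left out. Leaving out each sample in turn gave -0.17 to 0.49. Rdh12 was -0.013 with median-ratio scaling, -0.23 with TPM scaling, -0.055 with array weights, -0.091 scaled to recovered reads, -0.096 in limma-voom and -0.20 without that pair of samples, and -0.10 to 0.15 when each sample was left out. Cyp26b1 was -0.14 without that pair. Of the retinoid-responsive genes 2 were lower, but 1 with no filter and with the replicate block. Without Control replicate 3, alone or together with Spry1_KO replicate 2, 3 of them were lower. Genes called higher over the whole table numbered 2058 with TPM scaling. The cause was not tested in any of these.

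The replicate block rested on numbers in the titles. The deviations of same-numbered samples from their group means had correlations of -0.0981, -0.111 and -0.125. With 3 samples a group, these cannot show whether same-numbered samples share more than a number. With the block 2 of the 9 genes were higher, and 3216 genes higher and 2618 lower overall. Dhrs9, Rarg, Ncoa1 and Krt10 did not pass with the block (limma adjusted p of 0.0791, 0.0561, 0.0878 and 0.0503). The limits are 3 samples a group, an unknown FPKM formula, low reads for Dhrs9 and Stra6, and fold changes that shift with scaling.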
